A study of Mus musculus with 20 samples.

Results

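The 10 genes Csf1r, Spic, Hmox1, Slc40a1, Cd163, Mrc1, Vcam1, C1qa, C1qb and C1qc, known as genes of the macrophages that live in the spleen, were read in bulk RNA from mouse spleens filled with a T-cell acute lymphoblastic leukemia. They were taken by symbol from 2 tables. All 10 were present in both, among 26099 genes listed for the acute arm and 26486 for the survival arm, and all 10 passed the filter on low values in both.

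Every recipient was irradiated below the lethal dose and received, by vein, leukemia cells in which Acly can be deleted. The product of Acly, ATP citrate lyase, turns cytosolic citrate into acetyl-CoA. For the acute arm, corn oil (control, 6 libraries) or tamoxifen in corn oil at 3 mg per mouse (knockout, KO, 4 libraries) was injected into the peritoneum once leukemia was overt, and spleens were harvested after 72 h. For the survival arm (5 control and 5 KO libraries) the same injections followed 48 h after the cells, and harvest was at the humane endpoint. The controls carry the same conditional leukemia, although titles call them WT, so that the effect of tamoxifen and that of the deletion cannot be told apart. The sources used here do not give the Cre driver, the host genotype, the ages of the mice or the number of separate leukemias.

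The suspensions passed a 40 µm filter and were depleted of red cells by lysis. The labels name no sort, so each library holds RNA of leukemia cells and host cells together. In such a mixture, more cells of a type and more RNA per cell cannot be told apart. Libraries of the acute table sum to 19432235 to 20731983 normalized counts, and those of the survival table to 19998354 to 21623571. Acly itself fell in both arms, from 7735 ± 298 (SD, n = 6) to 5670 ± 766 (n = 4) normalized counts in the acute arm and from 7889 ± 561 to 3091 ± 712 (n = 5 each) in the survival arm. Every KO library lay below every control of its arm. With libraries scaled to the T-cell genes Trbc1 and Trbc2, the acute Acly change of -0.46 was -0.081 (adjusted p 0.653), and the survival fall was still called.

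Macrophages of the splenic red pulp clear aged red cells and recycle their iron. The colony stimulating factor 1 receptor, encoded by Csf1r, keeps macrophages alive, and the transcription factor encoded by Spic is needed for red pulp macrophages to form. Heme from digested red cells induces Spic and Hmox1, whose product opens heme and frees its iron, and Slc40a1 encodes ferroportin, which exports that iron. Several of the 10 genes are also used elsewhere: Csf1r in monocytes, Vcam1 and Mrc1 in endothelium and stroma, Hmox1 in many stressed cells.

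RefSeq promoter sequences (build GRCm38.p6, while the expression values were made on GRCm39) were at hand for 5 of the 10 genes, and the 250 bases before the start site are shown for these because the genes moved together in the libraries. Their positions are chr10:88683024-88683273 on the minus strand for Spic, chr2:14229164-14229413 on the plus strand for Mrc1, chr4:136886201-136886450 on the minus strand for C1qb, chr4:136892915-136893164 on the minus strand for C1qc and chr6:124304401-124304650 on the plus strand for Cd163. Capitals mark the 7 letters AGGAAGT or their reverse complement ACTTCCT, a core of the kind bound by ETS factors, the family of PU.1 and of the Spic protein.
Spic: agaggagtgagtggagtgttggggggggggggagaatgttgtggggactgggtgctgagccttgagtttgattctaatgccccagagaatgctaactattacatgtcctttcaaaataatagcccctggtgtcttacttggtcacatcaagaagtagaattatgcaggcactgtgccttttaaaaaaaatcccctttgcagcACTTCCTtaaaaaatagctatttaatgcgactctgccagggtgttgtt
Mrc1: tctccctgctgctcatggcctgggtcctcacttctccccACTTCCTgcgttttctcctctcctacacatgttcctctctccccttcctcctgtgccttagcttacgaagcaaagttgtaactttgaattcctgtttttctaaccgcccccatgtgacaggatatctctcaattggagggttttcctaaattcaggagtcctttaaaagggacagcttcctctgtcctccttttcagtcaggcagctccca
C1qb: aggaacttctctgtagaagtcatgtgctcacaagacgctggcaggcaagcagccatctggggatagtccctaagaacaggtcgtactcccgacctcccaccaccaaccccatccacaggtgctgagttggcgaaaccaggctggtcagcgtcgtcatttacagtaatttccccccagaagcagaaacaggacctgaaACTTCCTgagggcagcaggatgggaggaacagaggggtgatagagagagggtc
C1qc: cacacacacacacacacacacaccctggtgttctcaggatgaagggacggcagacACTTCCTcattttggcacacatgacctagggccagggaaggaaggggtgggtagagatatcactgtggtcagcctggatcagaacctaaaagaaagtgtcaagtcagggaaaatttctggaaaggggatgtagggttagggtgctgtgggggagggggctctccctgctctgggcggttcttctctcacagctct
Cd163: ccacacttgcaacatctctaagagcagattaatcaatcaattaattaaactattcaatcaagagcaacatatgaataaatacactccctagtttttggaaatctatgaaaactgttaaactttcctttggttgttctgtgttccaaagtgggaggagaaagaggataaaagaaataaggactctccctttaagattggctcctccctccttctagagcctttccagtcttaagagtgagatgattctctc
The letters occurred in 4 of these 5 windows and in 2525 of 32851 promoter windows of the same length (7.69%), searched on both strands. In Spic the match began 48 bases before the start site, in C1qb 53, in C1qc 195 and in Mrc1 211. Cd163 held no match in this window. The motif was picked after these sequences had been read, so the count is a description only. In the same RefSeq annotation, the 3 C1q genes are neighbours on chromosome 4.

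In the acute arm the whole set was higher in KO spleens 72 h after tamoxifen. All 10 genes rose, against 16.7% of all genes tested that were called higher and 14.7% lower, and the median change over the 10 was 0.82 on the log2 scale against -0.02 over all genes. The changes ran from 0.53 for Vcam1 to 1.17 for Slc40a1. For 5 genes every KO library lay above every control, which held for 12.7% of all genes. Changes are on the scale log2(normalized count + 1), and a call means a limma adjusted p below 0.05.

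**Figure D1:**
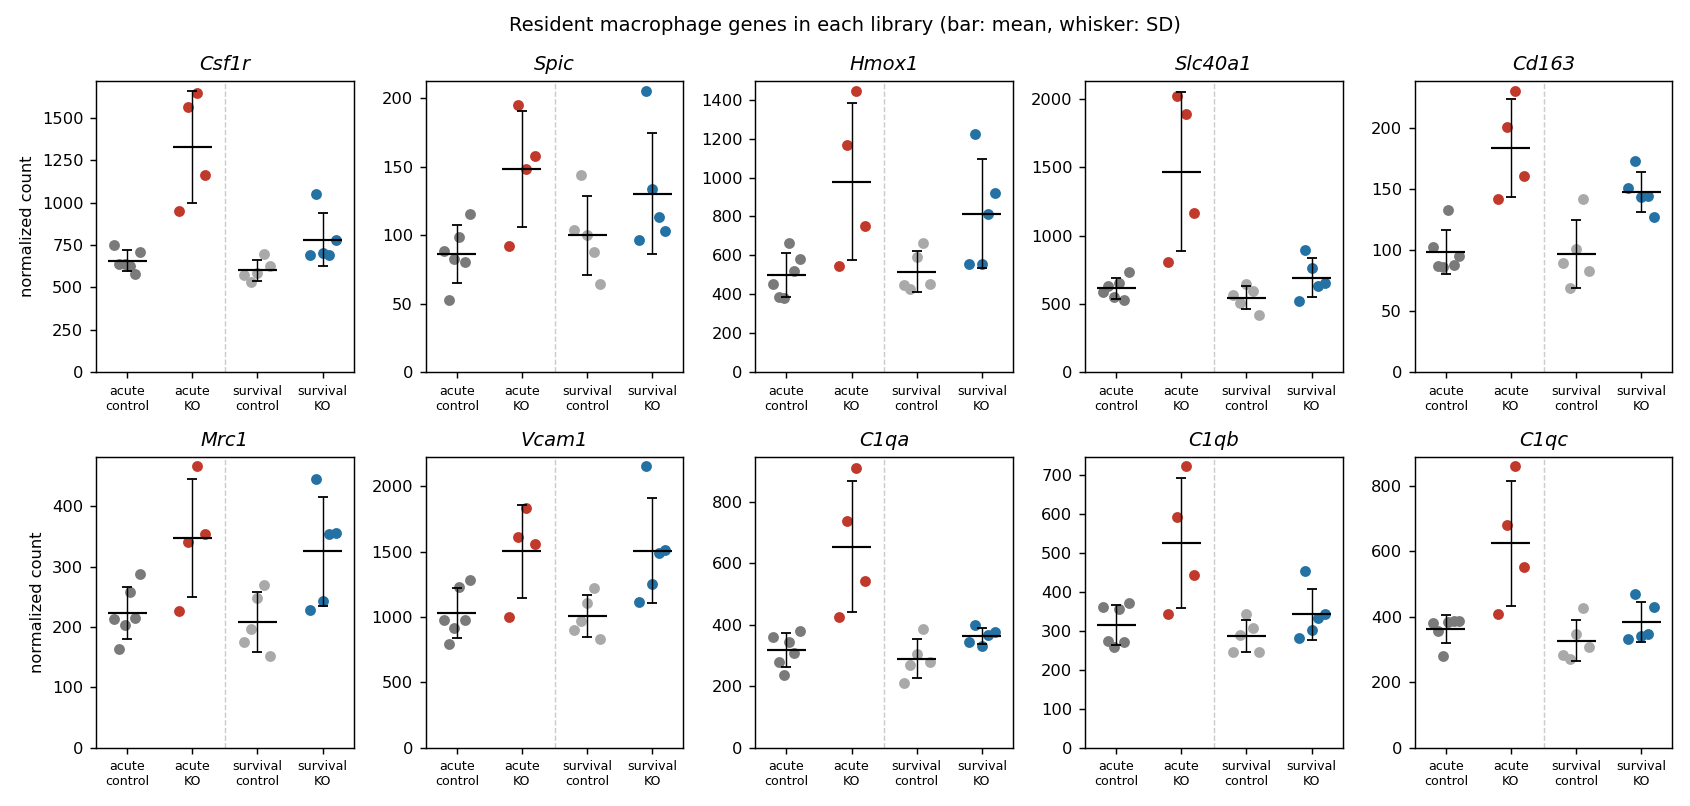
Normalized counts (vertical axis) of the 10 genes in each library; points are libraries, bars are group means and whiskers SD, for acute control (n = 6), acute KO (n = 4), survival control (n = 5) and survival KO (n = 5). Acute KO points spread widely, with Slc40a1 between 803 and 2019 there and between 517 and 892 in survival KO. For Mrc1 and Vcam1 the KO means of the acute and survival arms are close, at 347 and 326 and at 1502 and 1505.

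Csf1r, the receptor, gave the tightest result. Its controls lay between 577 and 748 normalized counts with a median of 637. KO libraries 1 to 4 read 951, 1565, 1649 and 1161. All 4 stood above the highest control, and KO 2 and 3 stood highest. Csf1r rose by 0.99 (SE 0.14, adjusted p 0.000333, exact permutation p 0.00476, the smallest that 210 arrangements allow).

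Spic, the transcription factor of red pulp macrophages, was the least abundant of the 10 with Cd163. Its acute controls spanned 52.5 to 115 with a median of 85.3, and the KO libraries read 91.8, 195, 148 and 158. KO 1 lay inside the control range and the other 3 above it. The rise was 0.76 (SE 0.24, adjusted p 0.0282, exact permutation p 0.0238).

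Of the iron pair, Hmox1 encodes heme oxygenase 1. It read 378 to 664 in acute controls, median 485, and 547, 1168, 1443 and 752 in KO libraries. KO 1 again overlapped the controls. Its rise was 0.91 (SE 0.25, adjusted p 0.0159). Slc40a1, the iron exporter, had controls between 528 and 736, median 608, and KO values of 803, 2019, 1888 and 1164. No KO library overlapped a control. At 1.17 (SE 0.22, adjusted p 0.00193, exact permutation p 0.00476), the acute change of Slc40a1 was the largest of the 10.

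Cd163, the receptor that takes up haptoglobin bound to hemoglobin, read 86.4 to 133 in acute controls, median 91.4, and 142, 201, 231 and 161 in KO libraries. Groups did not overlap, and Cd163 rose by 0.88 (SE 0.17, adjusted p 0.00229). Mrc1, the mannose receptor, ranged from 164 to 288 in controls, median 214, and read 226, 341, 467 and 354 in KO libraries. Here KO 1 sat in the middle of the controls, and the rise was 0.61 (SE 0.19, adjusted p 0.0306).

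Vcam1, an adhesion molecule bound by integrins and carried by red pulp macrophages as well as by endothelium, read 794 to 1286 in acute controls, median 977. Its KO values were 999, 1613, 1836 and 1559, with KO 1 close to the control median. The rise of 0.53 (SE 0.17, adjusted p 0.0320, exact permutation p 0.0381) was the smallest of the 10.

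The C1q genes encode the 3 chains of the molecule that starts the classical complement pathway and tags dying cells for uptake; macrophages are its main source. C1qa read 236 to 380 in acute controls, median 327, and 426, 737, 911 and 543 in KO libraries, all above the controls, a rise of 1.00 (SE 0.20, adjusted p 0.00264). C1qb read 258 to 371, median 315, and 344, 592, 724 and 445, with KO 1 inside the control range and a rise of 0.70 (SE 0.19, adjusted p 0.0156). C1qc read 280 to 388, median 383, and 407, 679, 859 and 551, with no overlap and a rise of 0.74 (SE 0.17, adjusted p 0.00742). The order KO 3, KO 2, KO 4, KO 1 was the same for all 3 chains.

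KO 2 and KO 3 carried much of these calls. Without KO 2, or without KO 3, the same 5 genes were called: Csf1r, Slc40a1, Cd163, C1qa and C1qc, which are also the 5 whose groups did not overlap. Without both, 3 of 10 were called, namely Csf1r (adjusted p 0.00204), Slc40a1 (0.0145) and C1qa (0.0428). Of all genes, 12.9% were called higher without KO 2, 12.7% without KO 3 and 8.04% without both. The calls of Spic, Mrc1 and Vcam1 were also lost without control 3, control 5 or KO 4, those of Mrc1 and Vcam1 without control 2, and that of Vcam1 without control 1, at adjusted p 0.05004 to 0.0712.

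Measured beside them, genes of other cells moved with the same libraries. The 16 neutrophil markers summed to 12390 to 50390 normalized counts in acute controls and to 182697, 618308, 376035 and 219832 in KO 1 to 4. The 15 T-lineage genes summed to 287570 to 297220 in controls and to 254217, 188522, 217493 and 237579. KO 2 and 3, highest for the macrophage genes, were also highest for neutrophil genes and lowest for T-lineage genes. The part of this shift in the change of the 10 genes was not tested.

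In the survival arm the same 10 genes were each higher on average in KO spleens, but none passed the test over all genes in limma. Of all genes tested, 0.0124% were called in this arm. At an unadjusted p under 0.05, 7 of the 10 were higher, against 5.13% of all genes, and 6 of the 10 had an exact permutation p under 0.05, against 4.96% of all genes that were higher by this test. The median change was 0.37 against 0.01 over all genes. In 0 of the 10 did every KO library lie above every control, which held for 1.21% of all genes.

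**Figure D2:**
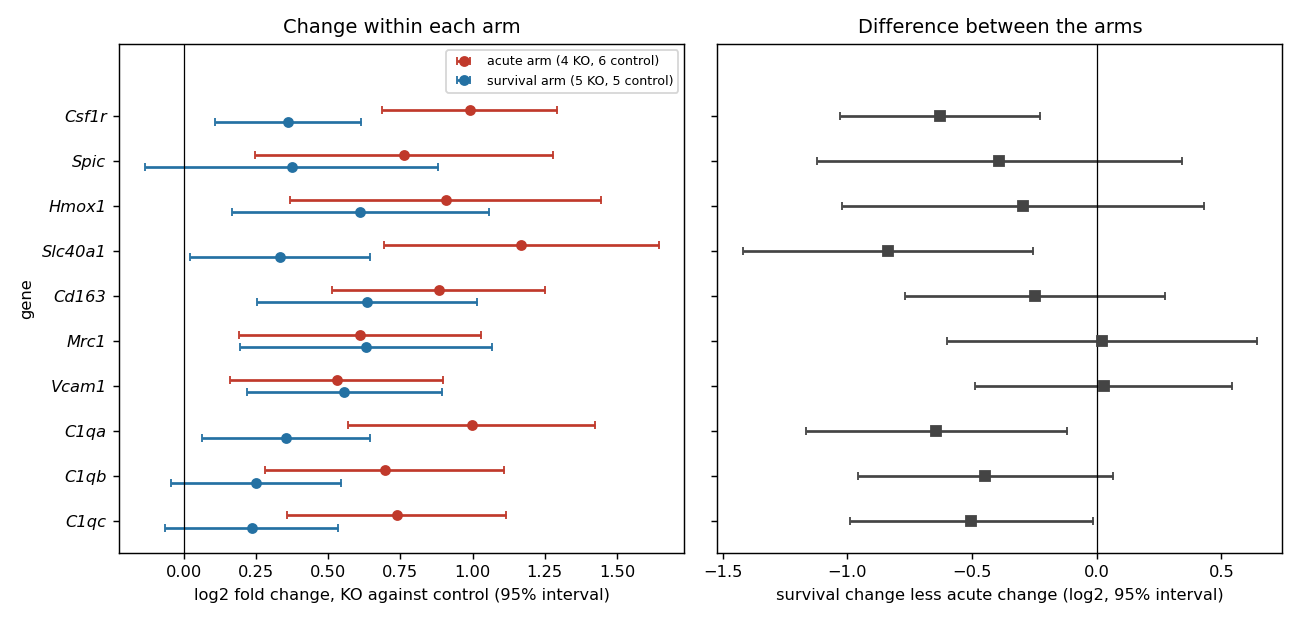
Left, log2 fold change of KO against control (horizontal axis) for each gene in the acute and survival arms; right, survival change less acute change; points are estimates and whiskers 95% intervals. Only Csf1r at -0.63 and Slc40a1 at -0.84 have a limma adjusted p under 0.05. C1qa at -0.64 was not called, and Mrc1 and Vcam1 lie near 0.

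Csf1r read 574, 534, 583, 696 and 625 in survival controls and 691, 1051, 701, 689 and 778 in KO libraries. Only control 4 reached into the KO range. The change was 0.36 (SE 0.12, unadjusted p 0.00864, adjusted p 0.346). Spic read 104, 144, 99.8, 87.3 and 63.9 in controls and 96.2, 205, 133, 113 and 103 in KO, a difference of 0.37 (SE 0.24, adjusted p 0.679) with the groups largely mixed.

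Hmox1 read 448, 426, 590, 665 and 454 in controls and 555, 1222, 556, 814 and 922 in KO. KO 2, 4 and 5 exceeded all controls, and the change was 0.61 (SE 0.21, unadjusted p 0.0109, adjusted p 0.366). Slc40a1 read 564, 504, 643, 593 and 419 in controls and 517, 892, 762, 630 and 650 in KO, a change of 0.33 (SE 0.14, adjusted p 0.536). For the iron exporter, KO 1 and 4 stayed within the control range.

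Cd163 read 89.9, 69.2, 101, 142 and 83.3 in controls and 151, 173, 144, 144 and 127 in KO. Apart from control 4, every control lay below every KO library. Its change of 0.63 had the smallest unadjusted p of the 10 (SE 0.18, unadjusted p 0.00330, adjusted p 0.287, exact permutation p 0.0159). Mrc1 read 175, 196, 248, 270 and 152 in controls and 228, 445, 243, 355 and 356 in KO, a change of 0.63 (SE 0.20, adjusted p 0.342).

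Vcam1 read 901, 972, 1110, 1221 and 831 in survival controls and 1111, 2158, 1254, 1487 and 1516 in KO. KO 1 fell between controls 3 and 4, and the other 4 exceeded all controls. The change was 0.56 (SE 0.16, unadjusted p 0.00352, adjusted p 0.290, exact permutation p 0.0159).

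C1qa read 211, 268, 304, 386 and 277 in survival controls and 345, 400, 330, 366 and 376 in KO, with control 4 inside the KO range and a change of 0.35 (SE 0.14, adjusted p 0.447). For C1qb the values were 245, 290, 343, 308 and 247 against 281, 453, 303, 332 and 343, a change of 0.25 (SE 0.14, adjusted p 0.644). For C1qc they were 282, 272, 348, 428 and 309 against 331, 469, 342, 347 and 431, a change of 0.24 (SE 0.14, adjusted p 0.664). The C1qb and C1qc groups overlapped through most of their range.

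Both arms could be compared for the same genes by fitting survival change less acute change over all 20 libraries. Csf1r and Slc40a1 had smaller changes in the survival arm, by -0.63 (SE 0.19, adjusted p 0.0255) and -0.84 (SE 0.28, adjusted p 0.0394). That is 2 of 10 called lower, against 10.9% of all genes. Neither call held without acute KO 2 (adjusted p 0.0722 for Csf1r and 0.111 for Slc40a1) or without acute KO 3 (0.0720 and 0.103), and the Slc40a1 call was also lost without acute control 1, 3 or 5, survival control 1, 3 or 4, or survival KO 1, 4 or 5 (0.0504 to 0.0715), or when limma was run without the trend (0.0601). Without acute KO 1 the 3 C1q genes were called as well, and C1qa was called without survival control 1 (adjusted p 0.036).

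The C1q differences were -0.64 for C1qa (95% interval -1.17 to -0.12, adjusted p 0.0753), -0.45 for C1qb (-0.96 to 0.06, adjusted p 0.210) and -0.50 for C1qc (-0.99 to -0.01, adjusted p 0.138). For Mrc1 and Vcam1 the estimates of both arms lay close together, with a difference of 0.02 for Mrc1 (-0.60 to 0.64) and 0.03 for Vcam1 (-0.49 to 0.54). The Mrc1 interval still holds differences as large as the acute change of Vcam1 (0.53) in both directions. That of Vcam1 holds such a difference only on the positive side. For Spic (-1.12 to 0.34), Hmox1 (-1.02 to 0.43) and Cd163 (-0.77 to 0.27) the intervals also spanned 0.

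**Figure D3:**
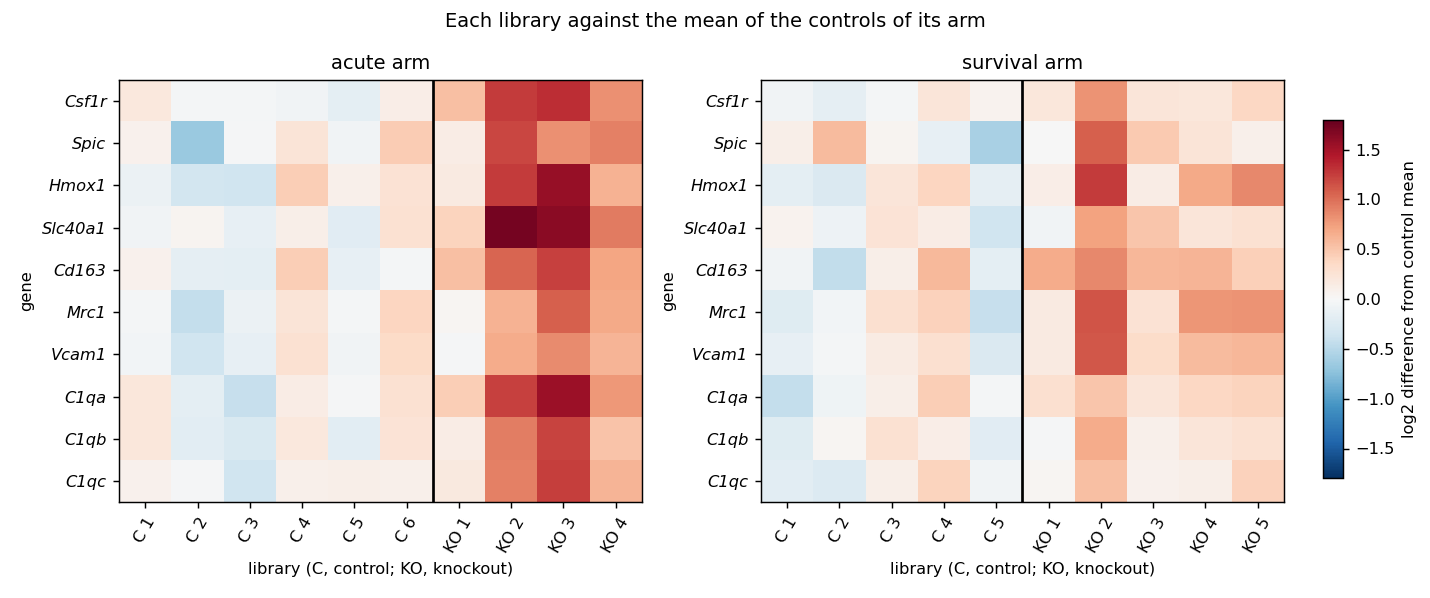
Log2 difference of each library (columns) from the mean of its arm's controls, for each gene (rows); red is higher and blue lower, and the black line divides controls from KO. Acute KO 2 and 3 and survival KO 2 are the reddest columns, and acute KO 1 is the palest KO column of its arm.

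Within the KO groups single libraries stood apart in the same way for most genes. Averaged over the 10 genes, acute KO 1 to 4 lay 0.25, 1.08, 1.251 and 0.72 above the control mean on the log2 scale. Acute KO 3 was the highest library for 8 genes and KO 2 for Spic and Slc40a1, while KO 1 was the lowest KO library for all 10. Survival KO 1 to 5 lay 0.16, 0.87, 0.29, 0.40 and 0.45 above their controls, and KO 2 was the highest of the arm for all 10.

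Survival KO 2 was also the library with the lowest Acly of its group, 2174 normalized counts, and KO 1 had the highest, 4017. The acute arm did not show this order. Acute KO 2 and KO 3, highest for the macrophage genes, had the highest Acly of their group, 6228 and 6402. Acute KO 1 read 5226 and KO 4 read 4823. A link between Acly and the macrophage genes was not tested. Neutrophil sums did not follow the order of the macrophage genes in the survival arm. They were 31245, 2928, 26696, 8174 and 2885 in survival KO 1 to 5, against 5409 to 26790 in controls. Survival KO 2, highest for the macrophage genes, was thus near the bottom for neutrophil genes. T-lineage sums were 268943 to 293392 in survival KO and 262598 to 295653 in controls.

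Across libraries, the 10 genes deviated from their group means together, described here by Pearson's r over the 10 libraries of a table, which share their scaling. Over the 45 pairs the median r was 0.82 in the acute table and 0.66 in the survival table. Mrc1 and Vcam1 were the closest pair in both, with r of 0.98 and 0.95. Spic was in the loosest pair in both, with C1qc at 0.52 and with C1qa at -0.04.

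Of 11211 genes searched, those most like the C1q mean were Axl (r 0.94 acute, 0.89 survival), Sdc3 (0.96, 0.89) and Mertk (0.88, 0.89). Axl and Mertk encode receptors for the uptake of dying cells. Among the closest to Vcam1 were Mertk (0.95, 0.91) and Selenop (0.97, 0.88), and both were also among the closest to Mrc1. Selenop, which encodes selenoprotein P, fell in the acute arm by 0.23 (SE 0.07, adjusted p 0.0235) although Vcam1 and Mrc1 rose.

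Among the genes most like Csf1r were Arhgap21 (0.88, 0.92) and Gm2a (0.89, 0.87), which encodes a lysosomal protein. Slc40a1 was most like Fcgr4 (0.93, 0.90), an Fc receptor gene, then Trim21 and Mcee. Hmox1 was nearest to Sdc3, Fcna (0.94, 0.88) and Ctsb, Cd163 to Pigq, Irf7 and Gm12250, and Spic to 9330020H09Rik, Pex3 and Acer3. Searching this many genes over 10 libraries yields high r for some, so these names are a description.

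**Figure D4:**
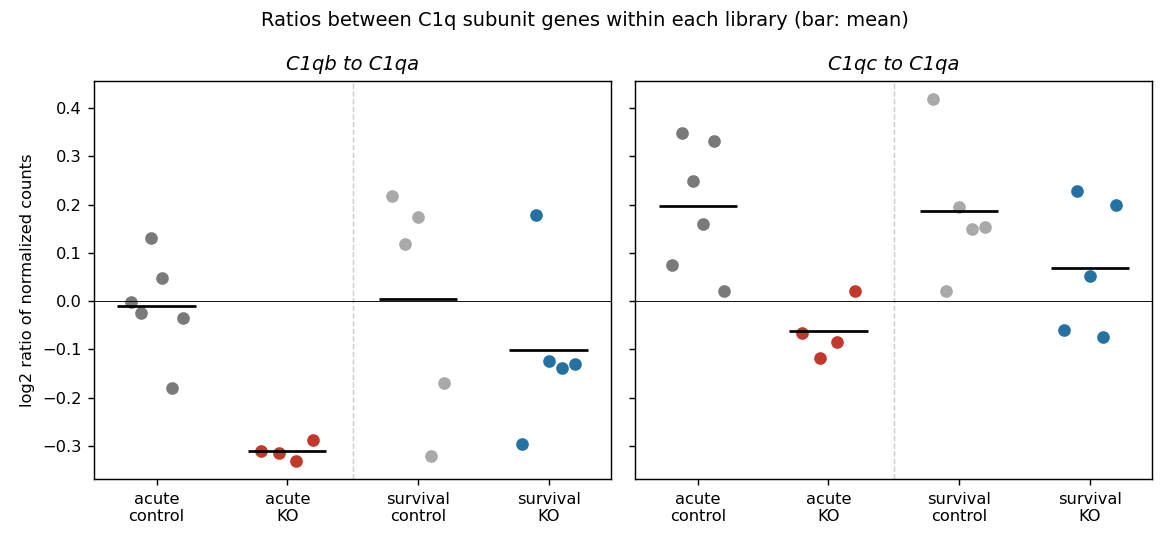
Log2 ratio of C1qb to C1qa (left) and of C1qc to C1qa (right) within each library (vertical axis), by group; points are libraries and bars group means. The 4 acute KO points for C1qb to C1qa sit between -0.33 and -0.29, below all 6 acute controls.

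Among 12 ratios between the genes, 2 did not overlap between the acute groups, both within C1q. The log2 ratio of C1qb to C1qa was -0.18 to 0.13 in acute controls and -0.33 to -0.29 in KO, so that the groups did not overlap. The ratio of C1qc to C1qa averaged 0.20 in controls and -0.06 in KO, with the highest KO library (0.0208) just under the lowest control (0.0214). In the survival arm both ratios overlapped, with means of 0.0036 and -0.10 for C1qb to C1qa and 0.19 and 0.07 for C1qc to C1qa. The lowest survival control for C1qb to C1qa, at -0.32, lay within the range of the acute KO libraries. Ratios of the other genes to Csf1r overlapped between groups in both arms. The largest shifts of these were -0.46 for Vcam1 and -0.38 for Mrc1 in the acute arm. These ratios were not tested.

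Other genes of resident macrophages rose widely in the acute arm. Of 20 tested, 15 were called higher and 0 lower, with a median of 0.94. Over all genes 16.7% were called higher and 14.7% lower, which applies to each acute list below. Adgre1, which encodes the F4/80 antigen, went from 179 to 351 normalized counts (0.93, SE 0.20, adjusted p 0.00492), and Fcgr3, an Fc receptor gene also used by neutrophils and monocytes, from 103 to 862 (2.96, SE 0.25, adjusted p 3.84e-05). The 5 not called, named after their values were seen like Adgre1, were Apoe (0.28), Cd5l (0.27), Gpnmb (1.10), Marco (0.12) and Timd4 (0.44). Cd5l, Marco and Timd4 were listed as markers of resident macrophages, as were the genes called higher. Timd4 was low, at 15.9 in controls and 21.7 in KO (SE 0.29), and Marco had an SE of 0.26. Others of this list were called higher, again named after their values were seen. They include Treml4 (1.08, adjusted p 0.00216), Itgad (0.72, 0.0240), Axl (0.85, 0.00384), Mertk (0.66, 0.0366) and Siglec1 (2.57, 0.000127). Without acute KO 2 and 3, 8 of the 20 were called higher, against 8.04% of all genes, and the median was 0.53. That share applies to the lists below too. Folr2 and Vsig4 were below the filter.

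In the survival arm none of the 19 tested from that list was called in limma, and the median was 0.32. At an unadjusted p under 0.05, 8 were higher, against 5.13% of all genes in that arm. There the change of Timd4 was 0.90 (unadjusted p 0.00419, adjusted p 0.300) and that of Cd5l 0.41 (adjusted p 0.445), while that of Marco was -0.27 (unadjusted p 0.414). The list summed to 4711 to 5850 in acute controls and to 7644, 16110, 15147 and 9567 in acute KO 1 to 4. In the survival arm the sums were 4377 to 5782 and then 5183, 8399, 5869, 5919 and 6343.

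Of the other iron and heme genes, 7 of 19 rose and 2 fell in the acute arm, against 16.7% and 14.7% of all genes. Their median was 0.24. Hp, whose haptoglobin is also a neutrophil granule protein, rose by 3.84 and Slc11a1, the phagosomal metal transporter, by 1.42. Ftl1, the ferritin light chain, rose by 0.47 (SE 0.11, adjusted p 0.00794), while the heavy chain Fth1 changed by 0.18 (adjusted p 0.182). Aco1, the iron regulatory aconitase, fell by 0.25, and was 0.13 under Trbc1 and Trbc2 scaling, which moved the median of all genes from -0.02 to 0.35. Without acute KO 2 and 3, 3 of these genes were called higher and 0 lower, against 8.04% of all genes called higher. Under Trbc1 and Trbc2 scaling with all libraries 15 rose and 0 fell, where 45.3% of all genes were called higher.

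NRF2 targets, which share this activator with Hmox1, rose in 5 of 10 cases (median 0.39), led by G6pdx at 1.69. Without acute KO 2 and 3, 2 were called. Other complement genes rose in 11 of 16 cases (median 1.52), led by the receptor gene C5ar1 at 3.82, and 8 were called without those libraries. Among integrins and other partners of VCAM1, 4 of 6 rose, with Itgb7 at 1.22, and 2 fell, with Itga9 going from 7745 to 4597 (-0.77, SE 0.10, adjusted p 0.000150). Without those libraries 3 rose and 1 fell.

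Genes of the CSF axis and myeloid transcription factors rose in 11 of 13 cases, also without acute KO 2 and 3, with a median of 2.97. Csf2rb2, a receptor chain for related cytokines, rose by 3.70. Of 9 scavenger receptor genes, 2 were called higher (Clec7a at 3.27) and Stab1 lower at -1.04, against 16.7% and 14.7% of all genes. Their median of 0.28 was -0.08 under quantile normalization. Of 12 genes for the uptake of dying cells, 6 rose, led by Pros1 at 2.01, and Mfge8 fell by 0.28, which became 0.10 under Trbc1 and Trbc2 scaling; 3 rose without those libraries. Of 7 alternative activation genes, 4 rose, led by Chil3 at 3.47, which neutrophils also express, and Arg1 fell by 1.57. Without acute KO 2 and 3 the falls of Arg1 (adjusted p 0.148), Stab1 (0.319), Mfge8 (0.319) and Aco1 (0.0513) were not called.

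**Figure D5:**
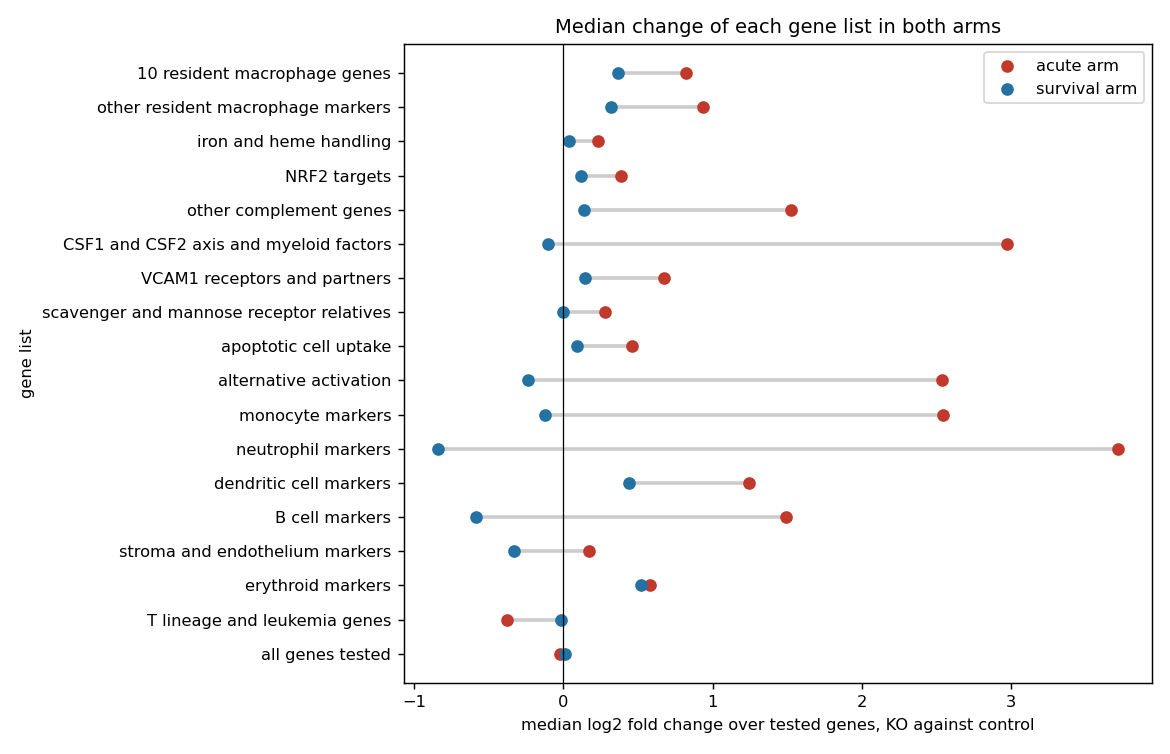
Median log2 fold change of KO against control (horizontal axis) over the tested genes of each list (rows), in the acute arm (red) and the survival arm (blue). The 10 genes have positive medians in both arms, 0.82 and 0.37, whereas the neutrophil list goes from 3.72 to -0.84.

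Marker lists of other blood cells also moved in the acute arm. All 16 neutrophil markers rose (median 3.72), led by Mmp8 at 4.67. Their median was -0.84 in the survival arm. For 16 of 16 the change there was called smaller than the acute change, against 10.9% of all genes. Of 12 monocyte markers 10 rose, led by F13a1 at 4.87, and Ace fell by 0.43. Without acute KO 2 and 3, 8 monocyte markers rose and the fall of Ace was no longer called (adjusted p 0.0801). All 10 B cell markers rose, led by Cr2 at 2.26, of which 4 were called without those libraries, and their survival median was -0.59. In the acute arm rises were also called for 4 of 8 dendritic cell markers, led by Flt3 at 2.04. The 15 T-lineage genes all fell, with Ptcra at -0.62, and 10 fell without acute KO 2 and 3, where 693 of 17248 genes were called lower. When libraries were scaled to Trbc1 and Trbc2, themselves T-cell genes, 2 of these 15 fell.

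Stroma and endothelium genes, relevant for Vcam1 and Mrc1, rose in 1 of 10 cases in the acute arm (Pdgfrb at 0.25), against 16.7% of all genes. Their median of 0.17 was -0.07 under quantile normalization. Sums were taken over all 16 listed genes of this kind, including those below the filter. They were 4400 to 7215 in acute controls and 4731 to 5397 in acute KO. In the survival arm they were 4911 to 6359 and 6075 to 8846. Pdgfrb alone averaged 2157 in acute controls and 2585 in acute KO, a large part of the acute sums. The survival sums were higher in KO although the median change of the 10 genes tested there was -0.33, with 5 of 10 positive, 0 called in limma and 5 at an unadjusted p under 0.05. None of 13 erythroid genes was called in limma in the acute arm, where 16.7% of all genes were called higher. There 6 were higher at an unadjusted p under 0.05 (median of the 13, 0.58). The share of all genes at that p is not reported here. Under Trbc1 and Trbc2 scaling 8 were called higher, as were 45.3% of all genes. The erythroid median was 0.52 in the survival arm. In acute KO 1 to 4 the erythroid genes summed to 11137, 34172, 44689 and 20885, against 12269 to 26275 in controls. Thus KO 3 and KO 2 were also highest, and KO 1 lowest, for red cell genes, and the part of this in the 10 genes was not tested. In the survival arm limma called 0 of the 180 list genes tested, and 27 had an unadjusted p under 0.05 in either direction. Of all genes in that arm, 5.13% were higher at that p. The share in either direction, for this count and for the stroma count, is not reported here.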

How the data were processed

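RNA was polyadenylated and libraries were strand-specific. The deposited tables hold DESeq-normalized counts, a signal that is not whole, and the authors scaled the 2 tables separately. Per the submitters' processing notes, reads were quantified with kallisto 0.46.0 on GRCm39 and normalized with DESeq. The sources used here give no annotation or filter. In the best case, 63.8 to 85.2% of values under 10 in a library were whole multiples of a single step, to within 0.1 step, so whole reads were not recovered, and exact depth is unknown.

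From these values, log2(normalized count + 1) was the input of limma 3.58.1 under R 4.3.3, using lmFit and eBayes with trend, with group means and no block. Genes reaching 10 in at least 4 (acute) or 5 (survival) libraries were tested, 16363 and 16136 genes, and p-values were adjusted by Benjamini-Hochberg over all of them. The difference between arms was fitted on the 15673 genes tested in both. Exact permutation tests were two-sided. The fit was tested on simulated data. The labels do not state that libraries are separate mice, so p-values cover only the spread among these libraries.

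The 10 genes and 16 lists (209 genes, none of the 10 among them) were chosen with earlier results of these data known. Besides the 10, the text names the called gene with the largest rise and fall of each list in the acute arm (mean of at least 20), genes from the 3 most similar for each of 8 targets (mean of at least 50, some not reported here), and others said to be chosen after their values were seen: in the iron list Slc11a1, Ftl1 and Fth1, and in the macrophage list those given there. Alternatives covered the pseudocount, filter, scaling, limma settings, a replicate block and leaving out libraries. Leaving out both acute KO 2 and 3 was planned for the 10 genes and added for the lists after seeing the data.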

Additional observations from a re-analysis of the deposited data

Results flagged for a closer look

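In the acute controls, Cd163 of control 4 (133 normalized counts) stood far above the next library (103), and C1qc of control 3 (280) far below the next (356). In the survival KO group, Csf1r of KO 2 (1051) stood far above the next library (778). These are 3 of 44 groups of 4 to 6 libraries examined for a sample far from the others, where chance flags about 1 in 20.

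The change of Csf1r, of Slc40a1 and of Acly differed between the arms. Survival change less acute change was -0.63 for Csf1r, -0.84 for Slc40a1 and -0.92 for Acly (limma adjusted p 0.0255, 0.0394 and 0.000442). The calls of Csf1r and Slc40a1 were lost without acute KO 2 or without acute KO 3, and with a replicate block. For both macrophage genes the acute rise was the larger, while for Acly the survival fall was the larger.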

How the results depend on the processing

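All 10 acute and all 10 survival changes stayed positive under every alternative run. The number of the 10 genes called in the acute arm was 3 without acute KO 2 and 3 together, 8 with quantile normalization, without the trend or with a replicate block, and 5 to 10 when 1 library was left out (leave-one-out), and 10 under the rest; Csf1r, Slc40a1 and C1qa were called in all. Of all genes, 8.04% were called higher in the acute arm without acute KO 2 and 3. The share was 14.2% with quantile normalization, 15.2% without the trend and 12.9% with a replicate block. In the survival arm 0 of the 10 genes were called under every alternative. For the difference between arms, 2 became 5 under Trbc1 and Trbc2 scaling, 3 with library weights in limma and 1 without the trend. The count was 0 with the replicate block (adjusted p 0.0867 for Csf1r and 0.0546 for Slc40a1). It was also 0 without acute KO 2 and 3, and 0 to 5 with 1 library left out. Under Trbc1 and Trbc2 scaling the acute change of Acly was -0.081 (adjusted p 0.653), Aco1 became 0.13 and Mfge8 0.10, while the median of all genes moved to 0.35 and calls to 7414 higher and 90 lower, from 2731 and 2409. Quantile normalization gave 2318 higher and 4145 lower, with a median of -0.14. Which cause lies behind these shifts was not tested. Same-numbered libraries did not deviate together (r -0.07 to 0.14 acute, -0.02 to 0.13 survival, with 1 of 4 and 0 of 5 pairs closest to their own number), so the numbers were not taken as a pairing. The depth behind the values is unknown.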
